A study of Homo sapiens with 14 samples.

Results

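Olfactory receptor genes gave the screen a set of targeting guides for genes that a kidney line is not expected to express. Guides were taken as members when the gene symbol in the guide name had the form of an olfactory receptor symbol (OR, a family number, subfamily letters and a member number). There were 1840 such guides of 91463 in the 6 sublibraries compared. They addressed 366 genes through 372 targets, a target being all guides of a sublibrary with the same symbol and the same start label. Each was set against the non-targeting guides, which have no intended site in the genome. The rule reads guide names only.

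The screen used HEK293 FLP-In, a line derived from human embryonic kidney that has an integration site for transgenes. The cells carried the delta opioid receptor (DOR) fused to the peroxidase APEX2, driven by the pUBC promoter, together with the repressor dCas9-KRAB, in clonally expanded cells. All groups had the same cells and the same stimulation, 10 µM of the opioid peptide DADLE for 90 minutes, given after 8 days of growth and followed by a 1 minute reaction of Amplex UltraRed (100 µM) with hydrogen peroxide (50 µM). Guides entered at a multiplicity of 0.2, and puromycin at 0.75 µg/ml selected the cells for 3 days, starting 2 days after transduction, in all groups. The groups differed only in sublibrary, H1 to H7, and in fluorescence quartile, top (brightest) or bottom (dimmest). There was 1 library per group, so no sort was repeated, and no unstimulated group was analysed.

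Olfactory receptors are G protein-coupled receptors, as DOR is. An olfactory sensory neuron usually expresses a single receptor gene, which signals through the olfactory G protein subunit, an adenylyl cyclase and a cyclic nucleotide-gated channel. The class I receptors (families numbered 51 and above) resemble those of fish, and the class II receptors (the lower family numbers) make up most of the mammalian repertoire. A few members have been described in tissues outside the nose. In CRISPR interference, dCas9-KRAB is brought to a gene's start and silences transcription there, so a guide to a silent gene binds chromatin and recruits the repressor where there is little transcription to remove. No RNA was measured in this series, so the silence of these genes in these cells rests on their family and was not measured.

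Sublibrary H6 held most of the members: 1727 guides of 343 genes in 349 targets, which was 93.9% of them and 13.3% of all H6 guides. H7 held 78 guides of 16 genes, H3 held 30 guides of 6 genes, H2 held 5 guides of 1 gene, and H1 and H5 held 0. With an entry minimum of 50 counts in either library, 1829 guides entered, and the 11 that did not were all in H6. All 372 targets kept at least 3 guides: 343 had 5, 27 had 4 and 2 had 3. Non-targeting guides that entered numbered 241 in H6, 308 in H7, 290 in H3 and 280 in H2. Total counts per compared library ranged from 18054418 in the H6 bottom library to 34636612 in the H2 top library.

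Chromosome 11 carried 165 of the 366 genes and chromosome 1 carried 56, by the RefSeq gene table of GRCh38.p14, where 365 symbols matched directly and 1 matched through an older symbol. Members lay far from other genes' guides. The nearest guide of a gene outside the family was a median of 119403 bases away, and 0 receptor genes had one within 1000 bases. The shortest distance, 2179 bases, was between guides of OR51F1 and MMP26, which encodes a matrix metalloproteinase. Close relatives were not always separable, since 20 member guides were listed under both genes of a pair, OR8U1 with OR8U8 and OR9G1 with OR9G9, with the same counts.

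The sequence upstream of the members' starts differed from that of most genes. It is shown for 3 receptors on chromosome 11: OR51F1, the lowest target by mean; OR8D4, the highest; and OR5AP2, whose guides differed least among receptors with an unadjusted permutation p under 0.05. The sequences are the 250 bases upstream of the start from RefSeq, GRCh38.p14, on the gene's strand. Capitals mark GG and CC, the dinucleotides that give the NGG motif a Cas9 guide needs on one strand or the other.
OR51F1, chr11:4769939-4770188, minus strand: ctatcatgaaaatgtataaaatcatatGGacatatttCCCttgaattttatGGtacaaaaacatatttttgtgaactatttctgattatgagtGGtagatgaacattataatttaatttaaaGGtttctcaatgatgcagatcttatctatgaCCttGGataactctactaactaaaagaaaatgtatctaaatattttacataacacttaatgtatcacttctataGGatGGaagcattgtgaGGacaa
OR5AP2, chr11:56642440-56642689, minus strand: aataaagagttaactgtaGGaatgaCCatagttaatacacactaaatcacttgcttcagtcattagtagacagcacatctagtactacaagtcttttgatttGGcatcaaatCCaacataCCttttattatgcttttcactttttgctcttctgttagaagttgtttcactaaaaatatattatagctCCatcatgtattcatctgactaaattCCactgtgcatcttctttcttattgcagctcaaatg
OR8D4, chr11:123901917-123902166, plus strand: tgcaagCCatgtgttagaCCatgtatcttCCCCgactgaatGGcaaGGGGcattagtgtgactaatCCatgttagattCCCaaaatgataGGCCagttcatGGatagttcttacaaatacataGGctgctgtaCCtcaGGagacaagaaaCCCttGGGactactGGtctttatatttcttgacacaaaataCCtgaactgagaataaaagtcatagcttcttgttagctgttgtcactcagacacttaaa

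These stretches hold 11 GG or CC dinucleotides in OR51F1, 7 in OR5AP2 and 24 in OR8D4, counted with overlap, and 0, 0 and 1 CpG. Their GC content is 27.2%, 32.4% and 40.8%. Over the 293 member genes with an upstream sequence in the table, the median GC content was 37.2%, against 58% over all 27305 genes of the table. The median number of CpG dinucleotides was 1 against 11, and 30.0% of member sequences had none against 6.39%. GG or CC dinucleotides numbered a median of 21 in members and 47 in all genes. So by the median, members had fewer such dinucleotides in this window. The window is set by the RefSeq start, and whether the library's guides lie in it was not examined.

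Motifs searched on both strands followed the same base composition. TATAAA, the core of a TATA box, was present in 31.1% of member sequences and in 11.1% of all. TAATTA, a core bound by many homeodomain proteins such as LHX2, was present in 20.8% and 4.49%. GGGCGG, the GC box, was present in 0.683% and 42.3%. A further motif searched, a palindrome of mostly C and G with free central bases, was not enriched in members. It was present in 0.683% of member sequences, 2 of 293, and in 1.08% of all. GC content and the number of GG or CC dinucleotides were weakly related to a target's value: over 280 targets Pearson's r with the mean was 0.068 and 0.081. These correlations are descriptions across genes that share libraries.

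Each guide's value is log2(top/bottom) of its counts, with a pseudocount of 1 and scaling by library totals, minus the non-targeting median in its sublibrary. A positive value means that the guide was more abundant in the brightest quartile. In H6 the 1716 member guides had a median of -0.011, and the mean differed from that of the non-targeting guides by -0.0014 with a standard error over guides of 0.019. In H7 the median was -0.003 and the difference of means -0.0015 with a standard error of 0.034. The 30 guides in H3 had a median of 0.034 and a difference of means of -0.013 with a standard error of 0.041, and the 5 in H2 had a median of 0.050. Pooled over sublibraries the member median was -0.009. The centre of the members therefore lay within 0.05 log2 units of the non-targeting centre in H3, H6 and H7. Only those 3 sublibraries held at least 20 member guides, too few for a sign test over sublibraries, so none was run.

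The spread of member guides was also near that of the non-targeting guides, and below that of guides to other genes. In H6 the SD was 0.289 for members, 0.272 for non-targeting guides and 0.387 for all other guides. Among those others it was 0.312 over 807 guides whose start label names a transcript, as most members' labels do, and 0.392 over 10120 guides with a numbered start. In H7 the members' SD was 0.249 against 0.333 for non-targeting guides, and in H3 it was 0.212 against 0.215. In units of the non-targeting SD, the pooled members had a spread of 1.05 and all other targeting guides 1.39. The scaled median absolute deviation, which ignores the tails, was 0.195 in H6 for members, 0.214 for non-targeting guides and 0.233 for others. Counting error alone would give the members of H6 an SD of 0.068, well below what was seen. Reads were amplified without molecular identifiers and are not independent molecules, and this figure covers counting error only. The binomial intervals given below treat guides or targets as independent draws, although these share libraries, and cover no difference between sorts.

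Low counts carried the tails. Among H6 guides with a mean count under 500, the SD was 0.655 over 169 member guides, 0.443 over 21 non-targeting guides and 0.792 over 1566 others. Between 500 and 1000 counts it was 0.319, 0.300 and 0.344. Between 1000 and 2000 counts it was 0.217, 0.211 and 0.261, and between 2000 and 4000 counts it was 0.166, 0.237 and 0.194. At 4000 counts or more it was 0.108 over 113 members and 0.080 over 8 non-targeting guides. Member guides thus spread less at each step up in counts. By SD they were narrower than guides to other genes in each range. From 500 to 2000 counts they were within 0.02 of the non-targeting SD. Under 500 counts the scaled median absolute deviation was 0.530 for members and 0.526 for others. The shares at least 2-fold from the centre there were 9.47% of members, 4.76% of non-targeting guides and 8.17% of others. Between 500 and 1000 counts they were 2.04%, 0% and 1.17%, and between 1000 and 2000 counts 0%, 0% and 0.492%.

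At least 2-fold from the centre lay 23 of 1829 member guides, or 1.26% (95% Wilson interval 0.839 to 1.88), 13 of them higher in the top and 10 lower. The same held for 10 of 1619 non-targeting guides, 0.618% (0.336 to 1.13), and for 1.97% of 87640 other targeting guides. In H6 alone the shares were 1.28%, 0.830% and 1.64%. Other transcript-named guides of H6 had 0.867%, 7 of 807, below the members' share, and those with numbered starts 1.70%. The members' interval overlaps that of the non-targeting guides, which is not a test of their difference, and none was run. Of the 22 such members in H6, 16 had a mean count under 500 and 5 lay between 500 and 1000. Some reached the entry minimum only in the library where they were high, such as guides of OR51F1 (107 bottom and 17 top counts) and OR8D4 (14 and 96). The share therefore rests in part on that filter: with at least 100 counts in both libraries it was 0.774% of members. At the milder distance of 0.5, members and non-targeting guides had shares of 5.69% and 5.74%, against 8.69% of other guides.

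No olfactory receptor target passed the test: 0 of 372, against 3.92% of all 18116 targets in the series. The test was a two-sided permutation test of a target's mean against draws from its own and the non-targeting guides, with Benjamini-Hochberg adjustment over all targets and a threshold of 0.05. Of the targets in H6, where 349 of the 372 lie, 1.31% passed in all, and all 34 were among the 2241 targets outside the family. Start type moved with these calls: the 34 were all in targets with a numbered start, whereas 358 of the 372 members have a start label that names a transcript. Of the 166 other transcript-named targets in H6, 0 passed and 7.23% had an unadjusted permutation p under 0.05. Having no call by the permutation test was therefore not particular to the receptors. Unadjusted permutation p-values under 0.05 went to 20 member targets, 5.38% (95% Wilson interval 3.51 to 8.16), against 12.3% of all targets. All 20 were in H6, where 9.15% of all targets had such a p. The shares among H6 targets alone were 5.73% for members and 9.68% for the rest. The test compares the libraries of 1 sort and not repeated sorts.

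Other tests gave no call either. The exact rank-sum test of a target's guides against the non-targeting guides called 0 members. It gave 20 an unadjusted p under 0.05, with a lowest adjusted p of 0.133. It called 2.72% of all targets of the series but 0.734% of all targets in H6, where most members lie. Among the 166 other transcript-named targets of H6 it called 1, or 0.602%. The quasi-likelihood test of edgeR, blocked by guide, called 0 of the 343 members it could take. It gave 9 an unadjusted p under 0.05, with a lowest adjusted p of 0.348. It called 1.49% of all targets of the series but 0.174% of all targets in H6, so 0 calls among members is near the H6 share. Unadjusted edgeR p-values under 0.05 went to 2.80% of members in H6 and 4.18% of all targets there. By size alone, 1 member target had a mean at least 0.5 from the centre, OR51F1, against 2.89% of all targets and 1.47% of those in H6. The member nearest the threshold in the permutation test was OR6C74, with an adjusted p of 0.0658. Its adjusted permutation p became 0.0451, past the threshold, when guides needed at least 100 counts in both libraries, and it was then the only member called.

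By intraclass correlation, guides of the same receptor were no more alike than guides of different receptors. This share of the variance that lies between targets was -0.004 over the 343 member targets with 5 guides and 0.197 over all targets of the series. H6 as a whole had little such agreement: it was 0.020 over its other targets. Member target means had an SD of 0.128 in H6 over 322 targets with 5 guides, where the non-targeting SD divided by the square root of 5 is 0.122. Over all 372 member targets the means ran from -0.56 to 0.44 with a median of -0.005 and an SD of 0.130, and 180 lay above 0. Over all targets the median was 0.009 and the SD 0.210.

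The side on which guides fell showed the same. Of the 343 member targets with 5 guides, 15 had 0 guides above the centre, 55 had 1, 128 had 2, 83 had 3, 51 had 4 and 11 had 5. All guides lay on 1 side in 30 of the 372 targets, or 8.06%, against 10.8% of all targets. In H6 that share was 8.60% for members and 8.92% for the rest.

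At the bottom of the range, single guides with few counts set the means. OR51F1, a class I receptor, had a mean of -0.56 ± 1.35 (SD over 5 guides). Its minus-strand guide at position 4791084 had 107 bottom and 17 top counts, a value of -2.98. The other 4 guides had bottom counts of 509, 393, 222 and 1059 and top counts of 736, 512, 304 and 1381, and their mean was 0.05. The sources used here give no genome build for positions in guide names, so these serve as names only. OR5R1 had the same form, with a mean of -0.46 ± 1.05 (SD, 5 guides), 1 guide at -2.31 with 97 bottom and 25 top counts, and a mean of 0.00 over the rest. In OR51F1 the other 4 guides had an SD of 0.071, and in OR5R1 they ran from -0.29 to 0.23.

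In a few low targets all guides lay on the same side. OR7E24 had a mean of -0.44 ± 0.53 with all of its 4 guides below 0, the farthest at -1.19 with 843 bottom and 484 top counts. OR5M9 had a mean of -0.39 ± 0.57 with all 5 below 0, and without its guide at -1.41 (98 and 48 counts) the mean was -0.13. For OR14C36 the mean was -0.27 ± 0.22, and for OR8D2 it was -0.25 ± 0.27, again with all 5 guides below 0. OR2B11 at -0.29 ± 0.60 and OR4D5 at -0.25 ± 0.41 each had 2 of 5 guides above 0. Their farthest guides stood at -1.34 (59 and 30 counts) and -0.92 (248 and 171 counts), and their other guides averaged -0.02 and -0.08. The adjusted permutation p-values of these 6 receptors ran from 0.105 for OR7E24 to 0.402 for OR8D2. The lowest values therefore came in both forms, 1 far guide or a shared small shift, and neither passed the test.

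At the top of the range OR8D4 had a mean of 0.44 ± 1.05 (SD, 5 guides). Its far guide had 14 bottom and 96 top counts, a value of 2.30, and the other 4, with 1503 to 4002 counts in the bottom library, averaged -0.02. OR4C45, which the gene table lists as a transcribed pseudogene, had a mean of 0.36 ± 1.21, with 1 guide at 2.48 (8 and 65 counts) and a mean of -0.18 over the rest. OR2T27 had a mean of 0.30 ± 0.82, with 1 guide at 1.76 (135 and 603 counts) and a mean of -0.07 over the rest. These 3 receptors, with OR51F1, OR5R1 and OR5M9, hold the 6 member guides farthest from the centre. Each of those 6 guides had under 150 counts in the bottom library.

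OR6C74, the member with the lowest permutation p (0.0029 before adjustment), had its farthest value in a well counted guide. Its mean was 0.43 ± 0.61, and its farthest guide had 1202 bottom and 3906 top counts, a value of 1.31. A second guide had 151 and 351 counts, a value of 0.82, while the other 3 had 2528, 3069 and 2143 counts in the bottom library and values of 0.02, -0.08 and 0.06. The exact rank-sum test gave it an unadjusted p of 0.119. So 2 of its 5 guides, 1 of them with few counts, stood apart and the remaining 3 sat near the centre.

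The remaining high receptors were OR4D11 at 0.32 ± 0.32 with all 4 guides above 0, OR10H1 at 0.30 ± 0.60, OR4N4 at 0.29 ± 0.59 and OR52B4 at 0.29 ± 0.35. OR10H1 had 1 guide at 1.14 with 415 bottom and 1205 top counts, and OR4N4 had 1 at 1.34 with 329 and 1093. Their other guides averaged 0.02 and 0.03. The adjusted permutation p-values of these 4 ran from 0.271 to 0.373, all short of the threshold.

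The 20 targets with an unadjusted p under 0.05 were 11 higher in the top and 9 lower. In 12 of them the farthest guide was past 2-fold, in 13 that guide had a mean count under 500 (as in 98 of all 372 member targets, 26.3%), and in 9 the other guides averaged within 0.1 of the centre. All guides were on 1 side in 7. The exact rank-sum test gave 7 of the 20 a p under 0.05, and edgeR gave 3. Of the 20, guides lay closest together in OR5AP2, chosen after its values were seen: its mean was -0.24 ± 0.066, with bottom counts of 1740, 1512, 1233, 1014 and 1310 and top counts of 1949, 1557, 1437, 1147 and 1447. Its adjusted permutation p was 0.403. OR52B6, also chosen after its values were seen, had a mean of 0.27 ± 0.24 with 5 of 5 guides higher in the top. Its farthest guide, at 0.67, had 231 bottom and 484 top counts, and the other 4 averaged 0.17.

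Receptors described outside the nose were compared one by one, since for these the assumption of silence is weakest. OR51E1 and OR51E2, class I receptors known in prostate, had means of -0.18 ± 0.26 and 0.19 ± 0.63 (SD, 5 guides each). In OR51E1 4 of 5 guides lay below 0, the lowest at -0.56 with 864 bottom and 769 top counts. In OR51E2 the mean came from 1 guide at 1.29 with 44 and 143 counts, and the other 4 averaged -0.09. The adjusted permutation p-values were 0.619 and 0.612.

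OR1D2, known from sperm, had a mean of 0.15 ± 0.12 with 5 of 5 guides above 0, at an adjusted permutation p of 0.700. OR2AT4, known from skin keratinocytes, had a mean of 0.28 ± 0.44, with 1 guide at 1.03 (64 and 173 counts) and an adjusted permutation p of 0.299. OR1A1 had a mean of 0.06 ± 0.10 and OR10J5 of -0.03 ± 0.18. None of these 6 receptors passed the test, and their means lay on both sides of the centre.

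Receptors with well known odorants behaved alike. OR7D4, which responds to androstenone, had a mean of -0.00 ± 0.23. OR5A1, the receptor for beta-ionone, stood at 0.05 ± 0.072, and OR6A2, linked to the smell of coriander leaf, at -0.04 ± 0.065. OR2J3 had a mean of 0.06 ± 0.20, the musk receptor OR5AN1 one of -0.01 ± 0.18, and OR2M3 one of 0.12 ± 0.20. OR10G4, in H7, stood at 0.19 ± 0.22 over 4 guides. The lowest adjusted permutation p of these 7 was 0.736, for OR10G4.

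The branches of the family were described by size, with no test. The 53 class I targets had a median mean of 0.016 with an SD of 0.128, and the 319 class II targets -0.010 with an SD of 0.130. Among families with at least 20 targets, medians ran from -0.021 over 29 targets in family 6 to 0.031 over 47 targets in family 4. Family 2, with 66 targets, had a median of -0.013, and the class I families 51 and 52, with 22 and 25 targets, had medians of 0.017 and 0.005. The 166 targets on chromosome 11 had a median of -0.011 and the 57 on chromosome 1 one of 0.017.

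Neighbours within the gene clusters had little in common. Nearby receptor targets whose guides lay within 25000 bases of each other, 128 pairs, had a Pearson's r between their means of 0.094 and a Spearman's rho of 0.105. Over 272 pairs within 100000 bases r was 0.048. The pairs share libraries and some share a target, so these are descriptions. They include OR8U1 with OR8U8 and OR9G1 with OR9G9, whose guides and counts are the same, so their means are equal by construction. Guides on the plus strand, 911 of them, had a median of -0.013 and an SD of 0.255, and the 918 on the minus strand -0.003 and 0.314.

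A few receptors had more than 1 start, which gave separate sets of guides to the same gene. These were listed after their values were seen. OR13A1 had 3 starts, with means of -0.04 ± 0.10, 0.07 ± 0.11 and 0.14 ± 0.13 (SD, 5 guides each). OR2W3 had means of -0.17 ± 0.15 and -0.08 ± 0.45, OR52A1 of -0.04 ± 0.11 and 0.02 ± 0.25, and OR5V1 of -0.02 ± 0.17 and 0.09 ± 0.29. OR4F17 had means of 0.05 ± 0.11 and 0.12 ± 0.30.

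Member guides were more abundant than non-targeting guides, whichever quartile was counted. Abundance here is the log2 of the summed bottom and top counts of a guide minus the non-targeting median of its sublibrary. The members' median was 0.29 in H6, 1.22-fold the non-targeting level, 0.46 in H7, 0.38 in H3 and 0.81 over the 5 guides in H2. Pooled it was 0.30, or 1.23-fold. Median counts in H6 were 1472 in the bottom and 1912 in the top library for members, and 1193 and 1591 for non-targeting guides. The other targeting guides of H6 had a median abundance of -0.03.

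In reads, the members' 13.3% of H6 guides took 15.9% of bottom-library counts and 15.8% of top-library counts. The share was therefore alike in both quartiles. Start type moved with abundance as well. Guides to other transcript-named targets of H6 had a median abundance of 0.09, and the 14 member targets with numbered starts had 0.11, against 0.31 for the transcript-named members. Abundance in the library before transduction was not analysed here, so how much of the excess was there at the outset was not tested.

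Other gene families confined to few tissues gave a comparison for the receptors. Of 26 taste receptor targets 0 passed the permutation test, and 7.69% had an unadjusted p under 0.05, or 15.4% by the exact rank-sum test, which gave 10.8% of all targets such a p. The farthest, the bitter receptor TAS2R39, had a mean of -0.41 ± 0.34 and an adjusted permutation p of 0.0528, followed by TAS2R41 at -0.29 and TAS2R7 at 0.23. The 3 vomeronasal receptors VN1R4, VN1R1 and VN1R2, pheromone receptor relatives, had means of 0.22, 0.12 and 0.06, and 0 passed. The median target mean was -0.016 in the taste receptors and 0.116 over the 3 vomeronasal receptors.

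Among 72 keratin-associated protein targets, hair shaft components, 0 passed and 5.56% had an unadjusted p under 0.05, with a median of -0.015. KRTAP11-1 had a mean of 0.98 ± 2.86, KRTAP19-1 one of -0.56 ± 1.00 and KRTAP5-11 one of -0.39 ± 0.63. Among 36 targets of the beta-defensins, antimicrobial peptides of epithelia, 0 passed and 0 had an unadjusted permutation p under 0.05, with a median of -0.003. The exact rank-sum test gave 6 of the 36, 16.7%, an unadjusted p under 0.05 and edgeR gave 1, and neither called any. Most targets of both families lay in H7. Unadjusted permutation p-values under 0.05 went to 12.3% of all targets, and to 13.9% with H7 left out. H7 thus had a lower share than the other sublibraries together, and the low shares here were not shown to be particular to these families. DEFB136 stood at 0.30, DEFB127 at -0.28 and DEFB105A at -0.26, a value that DEFB105B shared. The intraclass correlation was -0.029 in the keratin-associated proteins, 0.139 in the beta-defensins and 0.148 in the taste receptors, against -0.004 in the olfactory receptors.

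Ribosomal protein genes, most of which growing cells express, served as the opposite. The list also holds copies with restricted expression, such as RPL3L and RPL10L. Of 91 such targets 29 fell and 1 rose by the permutation test, a share of 33.0%, with a median of -0.18 and an intraclass correlation of 0.250. RPS24, RPS27A and RPS28 were farthest, at -0.92, -0.87 and -0.87. Their guides had a median abundance of -0.30, where the receptors had 0.30. The receptors thus had neither the shift between quartiles nor the low abundance relative to non-targeting guides that these genes had. The ribosomal targets lay in H3 and most receptors in H6, so different sorts are compared. The share called over all targets was 3.92%, and 2.82% with H3 left out. The 6 receptor targets of H3 had a median of 0.008, a median abundance of 0.38 and 0 calls.

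The olfactory signalling and receptor export machinery was also targeted. Of its 18 targets 1 passed, against the 3.92% given above for all targets, and the median was 0.027. ATF5, a transcription factor of the unfolded protein response that acts in olfactory neuron maturation, rose to 0.95 ± 0.38 (SD over guides) at an adjusted permutation p of 6.73e-04. LHX2, a homeodomain factor of olfactory neurons, stood at 0.25, and OMP, the olfactory marker protein, at -0.20, and neither passed. ATF5 is also active outside the nose, and whether that bears on this single call was not tested. After these by distance from 0 came CNGA4 at -0.14 (its other start at 0.09) and SLC24A4 at 0.14. Some means lay near the centre, such as GNB1 at 0.027 ± 0.22 and ADCY3 at -0.002 ± 0.52 (SD over guides). The guides of ADCY3 thus lay far apart.

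Used as the reference, the receptors gave fewer calls than the non-targeting guides. This was tried in H6, the only sublibrary with at least 100 member guides, on its 2241 targets outside the family, with adjustment within these targets alone. Drawn from the 241 non-targeting guides, 8 targets passed, or 0.357%, with 6 higher in the top and 2 lower. Drawn from and centred on the 1716 receptor guides, 3 passed, or 0.134%, all higher in the top. Unadjusted permutation p-values under 0.05 were nearly as many with either, 217 (9.68%) and 209 (9.33%). Adjusted over all targets of the series instead, the non-targeting pool gave the 34 calls in H6 counted above.

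The targets shared by both references were SLC12A9 and ZMYM5, 25% of the calls of the non-targeting pool and 66.7% of those of the receptor pool. SLC12A9, a cation-chloride cotransporter relative, had a mean of 1.02 ± 0.37 with 5 of 5 guides above 0 and an adjusted permutation p of 0.0112 with either reference. ZMYM5, a zinc finger protein, had a mean of 2.32 ± 3.97 with 4 of 5 guides above 0. Its SD exceeded its mean, so its guides lay far apart. SDK2, a cell adhesion molecule, passed with the receptor pool only, at a mean of 1.47 ± 2.21 with 2 of 4 guides above 0. These 3 and the next are named because they make up the calls, and were chosen after their values were seen.

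Those that passed with the non-targeting pool only were TMEM106B, a lysosomal membrane protein, at 0.67 ± 0.13, TGFBR3 at 0.65 ± 0.62, TMEM86A at 0.63 ± 0.71, LRRN1 at 0.57 ± 0.39, B3GNT2 at -0.59 ± 0.13 and PNISR at -0.58 ± 0.31. In each, all 5 guides lay on 1 side. For these 6 the adjusted permutation p-values with the receptor pool ran from 0.185 to 0.292.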

How the data were processed

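The values are counts per guide in top and bottom quartile libraries, deposited by the authors as whole numbers without normalization. Bowtie is listed, without a version, in the submitters' processing notes. The H4 libraries were not used here. Guides listed in only 1 library of a sublibrary were taken as 0 in the other. Members and gene lists were chosen with earlier results of these data known. A guide needed 50 counts in at least 1 of its libraries, and a target needed 3 guides. The permutation test drew 100000 sets per target, which makes 1e-05 the smallest p it can give, and p-values were adjusted by Benjamini-Hochberg over 18116 targets. edgeR 4.0.16 in R 4.3.3 was an alternative, since 1 library per group leaves a guide no residual degrees of freedom. Other steps used Python 3.11.15, numpy 2.4.6 and scipy 1.17.1. Named genes were called members, the 8 highest and 8 lowest targets with at least 4 guides, the 6 farthest guides, 14 receptors known elsewhere or by ligand, of which 13 were compared, and up to 3 members of each other list. Receptor promoters are RefSeq's, GRCh38.p14.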

Additional observations from a re-analysis of the deposited data

How the results depend on the processing

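The count of 0 receptor targets called held under other pseudocounts, no count filter, either other centring, the median over guides, leaving out shared guides, the farthest guide or any sublibrary, adjustment within sublibraries, the rank-sum test and edgeR. It became 1, OR6C74, with at least 100 counts in both libraries. The count of 1 target past 0.5 became 5 with no count filter, and 0 with at least 100 counts in both libraries, with the median over guides, at a threshold of 1 or without H6. With at least 100 counts in both libraries the share of receptor guides past 2-fold was 0.774%, and the targets called with the receptor reference fell to 1. Without H6, which leaves 113 receptor guides, the spread relative to non-targeting guides was 0.819 and the abundance 0.408. The causes were not tested. Leaving out each target's farthest guide, but no non-targeting guide, draws means toward the centre by construction: 0 of 370 receptor targets then had an unadjusted p under 0.05. No receptor guide lay within 1000 bases of another gene's guide, so that alternative equals the result reported. The difference of medians stayed between -0.012 and 0.005 under the alternatives run other than centring. For the other centrings only the receptor median was taken, with no non-targeting median subtracted. It was -0.005 when centred on the median of all guides and -0.010 with no centring. No paired analysis was possible because the labels carry no replicate numbers and each group has 1 library; top and bottom of a sublibrary are already set against each other in each value. With 1 sort per sublibrary, differences have no replicate check, and guides below about 500 counts limit what can be seen for a single receptor.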
